A study of Mus musculus with 8 samples.

Results

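Interferon-stimulated genes are the genes whose transcription rises when a cell senses interferon. The 37 described here were chosen by symbol from the deposited count matrix, which holds 27179 rows, 1 per gene. Every one of the 37 symbols had a row. Total RNA of natural killer (NK) cells, the cytotoxic lymphocytes of innate immunity, was sequenced from C57BL/6 mice in 4 groups of 2 libraries. The groups were wild-type and CIS-/- cells, each taken ex vivo or in vitro. CIS, encoded by Cish, is a cytokine-induced inhibitor of the SOCS family. CIS-/- cells, called CIS-null here, lack CIS by label, and the labels describe no allele. All 4 groups came from spleen, bone marrow and blood and were enriched on microbeads against CD49b (DX5). How the in vitro cells were grown, and the age and sex of the mice, are not in the labels. Nor do they say whether the 2 replicates of a group are separate mice or cultures, and p-values therefore reflect only the spread between these libraries, which may be technical.

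Type I interferons bind the receptor formed by Ifnar1 and Ifnar2, which activates the kinases Jak1 and Tyk2. These phosphorylate STAT proteins, which join Irf9 in a complex that binds the interferon-stimulated response element (ISRE) in target promoters. The induced proteins sense, degrade or trap viral nucleic acid and proteins, and some, such as Usp18 and Socs1, damp the receptor itself. In NK cells type I interferon is known as an activator of cytotoxicity.

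The core of the ISRE is a pair of GAAA repeats set apart by a short spacer. It was searched as GAAA, any 2 bases and GAAA, on both strands, in promoter windows from RefSeq (GRCm38.p6), running from 250 bases before to 50 bases after a gene's start. The table held windows for 27 of the 37 members. Those of Rtp4, Mx1, Mx2, Usp18, Parp14, Parp9, Dhx58, Oas2, Ifi27l2a and Zbp1 were not used here. At least 1 match stood in 13 of the 27 members (48.1%), beside 3.99% of the 27025 genes in the table and 3.44% of its 32851 windows. The 5 windows below all hold a match, and their genes carry differences described further on. Ifit1 and Ifit3 fell in culture, Eif2ak2 and Gbp2 were lower in CIS-null cells in vitro, and Oas1a was higher there. Capitals mark the motif on either strand, so that TTTC, 2 bases and TTTC is the same motif read from the opposite strand, and overlapping matches run together. The windows lie at chr19:34640639-34640938 (plus strand) for Ifit1, chr19:34583279-34583578 (plus) for Ifit3, chr17:78882523-78882822 (minus) for Eif2ak2, chr3:142620413-142620712 (plus) for Gbp2 and chr5:120907476-120907775 (minus) for Oas1a. Each is written 5′ to 3′ on its gene's strand.
Ifit1: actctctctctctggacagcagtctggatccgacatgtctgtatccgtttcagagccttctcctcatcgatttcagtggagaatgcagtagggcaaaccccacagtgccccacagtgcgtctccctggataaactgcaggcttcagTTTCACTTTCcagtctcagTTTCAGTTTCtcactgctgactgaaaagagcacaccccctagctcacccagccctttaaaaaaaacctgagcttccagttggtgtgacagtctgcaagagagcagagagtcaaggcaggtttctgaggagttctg
Ifit3: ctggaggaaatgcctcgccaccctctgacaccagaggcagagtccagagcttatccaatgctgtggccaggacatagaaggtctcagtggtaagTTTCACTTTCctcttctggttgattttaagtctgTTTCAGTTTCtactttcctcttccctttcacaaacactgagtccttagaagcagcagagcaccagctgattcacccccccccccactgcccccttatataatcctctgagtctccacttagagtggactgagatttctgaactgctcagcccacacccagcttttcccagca
Eif2ak2: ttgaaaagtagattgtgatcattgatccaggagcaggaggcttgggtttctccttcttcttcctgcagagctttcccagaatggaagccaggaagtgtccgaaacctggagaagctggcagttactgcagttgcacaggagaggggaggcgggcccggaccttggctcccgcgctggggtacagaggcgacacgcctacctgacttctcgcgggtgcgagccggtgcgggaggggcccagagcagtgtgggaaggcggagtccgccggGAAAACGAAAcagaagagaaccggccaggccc
Gbp2: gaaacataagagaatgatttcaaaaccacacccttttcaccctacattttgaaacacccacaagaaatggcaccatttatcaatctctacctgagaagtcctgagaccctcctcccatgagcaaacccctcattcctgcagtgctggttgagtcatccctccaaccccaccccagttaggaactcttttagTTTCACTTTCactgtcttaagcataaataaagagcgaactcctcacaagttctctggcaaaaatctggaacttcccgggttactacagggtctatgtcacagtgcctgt
Oas1a: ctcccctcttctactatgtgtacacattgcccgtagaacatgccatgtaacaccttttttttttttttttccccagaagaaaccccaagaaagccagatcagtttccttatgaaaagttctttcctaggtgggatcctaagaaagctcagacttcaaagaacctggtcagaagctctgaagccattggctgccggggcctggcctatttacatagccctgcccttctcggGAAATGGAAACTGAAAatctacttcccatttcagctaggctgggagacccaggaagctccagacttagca

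Ifit1 had matches whose first bases lay 104 and 85 bases before the start, and Ifit3 had them at 156 and 122 bases before it. Both genes carried the same pair of 10-base strings, TTTCACTTTC and then TTTCAGTTTC. Gbp2 had a single match, TTTCACTTTC again, 59 bases before its start. In Oas1a 2 matches overlapped, 20 and 14 bases before the start, and in Eif2ak2 the match began at base 19 after it. Isg15 held 3 overlapping matches, at 78, 72 and 66 bases before its start. The other members with a match were Bst2, Ddx58, Gbp3, Ifih1, Oas3, Rsad2 and Trim30a. A looser motif bound by STAT dimers, TTC, any 3 bases and GAA, which reads the same on both strands, stood in 5 of 27 members beside 9.55% of all genes. By culture call in wild-type cells, the ISRE motif stood in 5 of 14 members that fell, 4 of 5 that rose and 4 of 8 others. In CIS-null cells these were 4 of 15, 2 of 4 and 7 of 8. Between genotypes in vitro it stood in 4 of 8 lower, 1 of 2 higher and 8 of 17 other members. Ifit2, Cmpk2, Oasl1, Oasl2, Irf7, Irf9 and Ifi44, which fell in culture, had no match. A match describes letters in the window and no more.

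Each library held 21.5 to 28.1 M counts (1 M = 1e+06) over genes, and 13184 genes had enough counts to be tested. Cish was lower in both CIS-null libraries than in both wild-type libraries of the same state, at 1.29 and 2.64 counts per M (CPM) beside 9.26 and 9.12 ex vivo and 21.2 and 17.2 CPM beside 220 and 202 in vitro. All 10 NK cell markers looked at, among them Ncr1, Klrb1c and Eomes, were above 0 in every library. Most were lower in vitro in wild-type cells. There Itga2, which encodes CD49b, averaged 276 CPM ex vivo and 19.7 in vitro, Eomes 699 and 174, Ncr1 1745 and 648, and Klrb1c 3370 and 1646. Gzma alone of the 10 rose, from 9680 to 12840 CPM. Sex-linked genes did not follow one pattern. Xist reached 120 and 162 CPM in wild-type cells ex vivo, 131 and 89.7 CPM in CIS-null cells in vitro, and at most 0.322 CPM in the other 4 libraries. The Y-linked Eif2s3y was at most 0.0385 CPM in both CIS-null libraries in vitro and 21.7 to 135 CPM in the other 6. Sex-linked expression therefore differed with genotype in both states, and its part in the genotype results was not tested.

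The members together took 0.116 to 0.176% of the counts of a library. Summed over members, the level was 1653 and 1710 CPM ex vivo in wild-type cells, 1506 and 1602 CPM in CIS-null cells ex vivo, 1588 and 1617 CPM in wild-type cells in vitro, and 1380 and 1259 CPM in CIS-null cells in vitro. The CIS-null libraries lay below the wild-type libraries in each state. In bulk RNA, fewer cells of a type and less RNA per cell cannot be told apart.

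To compare genes with each other, levels were taken per length, as reads per kilobase per M (RPKM). Over the 37 members the median level was 7.61 RPKM in wild-type cells ex vivo, 7.37 in CIS-null cells ex vivo, 7.58 in wild-type cells in vitro and 7.08 in CIS-null cells in vitro. Levels above 20 RPKM were seen for 13, 11, 11 and 9 members in the same order of groups. The gene at the top changed with the state. Ex vivo it was Trim30a, a TRIM protein of the restriction factor class, at 47.2 RPKM in wild-type cells and 45.7 RPKM in CIS-null cells. In vitro it was Bst2 (tetherin, which holds budding virions at the cell surface) at 52.9 RPKM in wild-type cells, and Ifi27l2a, a small interferon-induced protein, at 79.7 in CIS-null cells. Mx2 and Oas2 were close to absent, at no more than 0.197 and 0.126 CPM in any library, and had too few counts to be tested. Mx1, an antiviral GTPase that in C57BL/6 mice is known to be a defective allele, was tested at 0.527 to 3.31 CPM.

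**Figure D1:**
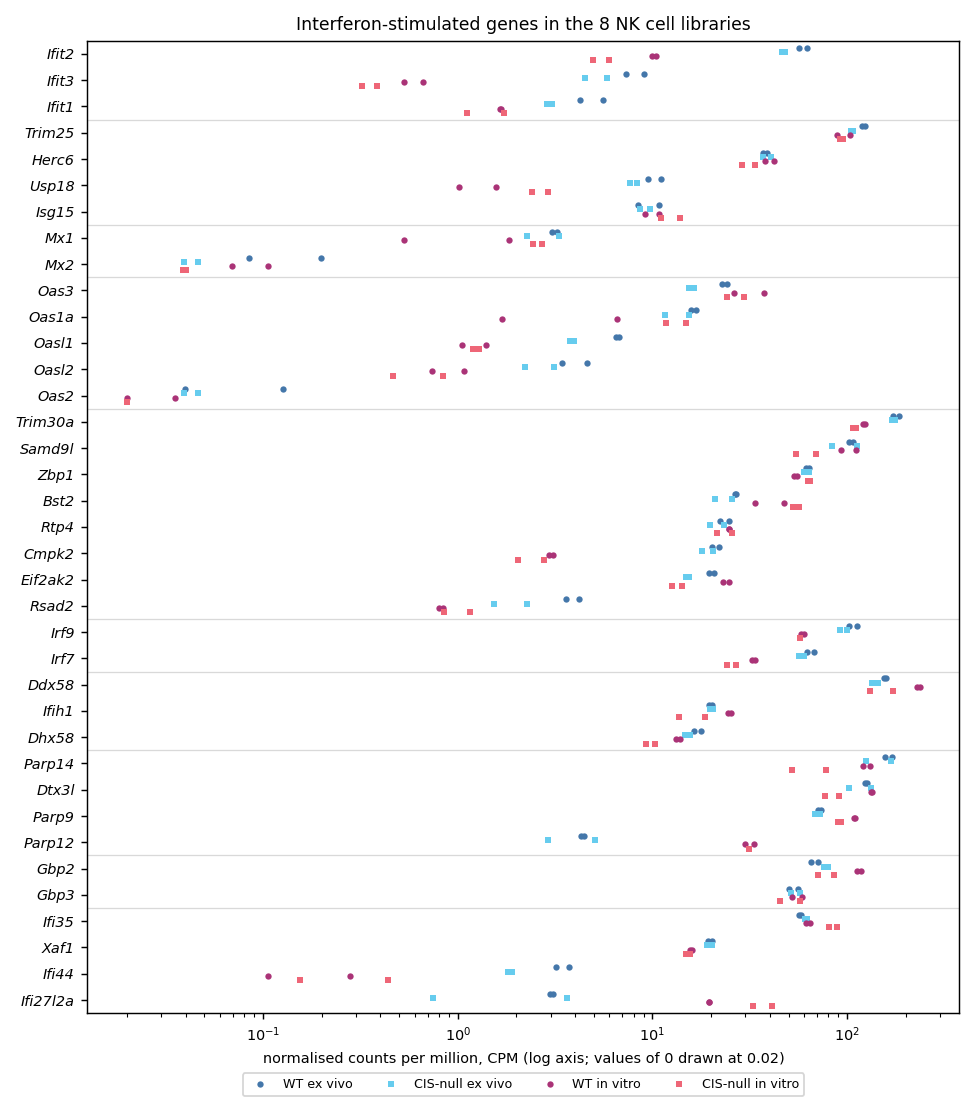
Each row is one of the 37 members, grouped by role, and each point is 1 library, with the normalised level in CPM on a log axis. Ifit2, Ifit3, Usp18, Cmpk2 and Oasl1 lie to the left in the 4 in vitro libraries, whereas Parp12 and Ifi27l2a lie to the right there.

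Culture was the larger of the contrasts for these genes. In wild-type cells, 17 of 35 tested members fell in vitro and 7 rose (68.6% called), where edgeR's quasi-likelihood test called 63.7% of all tested genes (31.6% lower and 32.1% higher). In CIS-null cells 18 fell and 6 rose, beside 72.4% of all genes (37.5% lower and 34.8% higher). The total share called was near the background in each genotype. Members had a median log2 fold change of -0.32 (wild type) and -0.31 (CIS-null), beside 0.00 and -0.05 over all tested genes. Of the members, 14 fell in both genotypes, beside 29.3% of all tested genes, and 5 rose in both, beside 28.9%.

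The IFIT proteins, which bind foreign RNA and block its translation, all fell. Ifit2 stood at 56.6 and 62.3 CPM in wild-type cells ex vivo and at 9.98 and 10.4 CPM in vitro. In CIS-null cells it went from 46.3 and 48.1 CPM to 5.97 and 4.93 CPM. The groups were far apart in both genotypes, with a 5.82-fold lower level in wild-type cells (log2 fold change -2.54 ± 0.12 SE, adjusted p = 8.87e-07 by edgeR) and an 8.65-fold lower level in CIS-null cells (-3.11 ± 0.12, adjusted p = 3.65e-07). Ifit3 fell from 7.28 and 9.0 CPM to 0.660 and 0.527 CPM in wild-type cells, a log2 fold change of -3.77 ± 0.27, and from 5.85 and 4.49 CPM to 0.386 and 0.320 CPM in CIS-null cells, a change of -3.85 ± 0.30. Ifit1 fell less, by 1.56 ± 0.27 on the log2 scale in wild-type cells and by 1.04 ± 0.28 in CIS-null cells, the latter not past the threshold without CIS-null in vitro replicate 2 (adjusted p = 0.0605). The 3 genes lie in a row on chromosome 19, with 6.58 kb between Ifit2 and Ifit3 and 51.9 kb between Ifit3 and Ifit1.

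Usp18 removes ISG15 from proteins and holds down the type I interferon receptor. It stood at 9.51 and 11.1 CPM in wild-type cells ex vivo and at 1.56 and 1.02 CPM in vitro, a log2 fold change of -2.99 ± 0.23 (adjusted p = 1.48e-05 by edgeR). In CIS-null cells the fall was from 8.34 and 7.67 CPM to 2.89 and 2.40 CPM, or -1.59 ± 0.22 on the log2 scale. Its substrate did not move with it. Isg15, the ubiquitin-like protein itself, ranged from 8.42 to 13.8 CPM over the 8 libraries and passed in neither genotype (adjusted p = 0.793 and 0.0532). The 2 ligase genes of the group changed little: Trim25, which also ubiquitinates RIG-I, fell by 0.33 ± 0.10 in wild-type cells, and Herc6, the main ISG15 ligase of the mouse, fell by 0.31 ± 0.11 in CIS-null cells. Both calls were fragile. The change of Trim25 was -0.02 once each library's trend with gene length was removed, and it was no longer called without either wild-type library ex vivo or without wild-type in vitro replicate 1. Herc6 was called in 8 of 18 alternatives and turned to 0.23 with the length trend removed.

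Oligoadenylate synthetases make the second messenger that activates RNase L. The Oasl genes encode synthetase-like proteins, and RNA levels do not measure that activity. Oasl1, Oasl2 and Oas3 were called in both genotypes, in different directions. Oasl1 fell from 6.52 and 6.75 CPM to 1.39 and 1.05 CPM in wild-type cells (log2 fold change -2.44 ± 0.22) and by 1.64 ± 0.23 in CIS-null cells. Oasl2 fell by 2.15 ± 0.36 and 2.03 ± 0.39 in the same order. Oas3 went the other way, from 22.9 and 24.2 CPM to 37.6 and 26.4 CPM in wild-type cells (0.44 ± 0.17, edgeR adjusted p = 0.0490) and from 16.4 and 15.4 CPM to 29.5 and 24.3 CPM in CIS-null cells (0.76 ± 0.18). The wild-type rise of Oas3 was called in 3 of 18 alternatives, the CIS-null rise in all 18. Oas1a fell in wild-type cells, by 1.98 ± 0.46, but its wild-type in vitro libraries stood at 6.54 and 1.69 CPM, well apart. In CIS-null cells Oas1a was 15.4 and 11.6 CPM ex vivo and 11.8 and 14.9 CPM in vitro, which overlap.

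Among the other restriction factors, Cmpk2 and Rsad2 are neighbours on chromosome 12, 12.7 kb apart. Rsad2 (viperin) makes a chain-terminating nucleotide from CTP, and Cmpk2 is a mitochondrial nucleotide kinase. Cmpk2 fell from 21.8 and 20.2 CPM to 2.95 and 3.09 CPM in wild-type cells, a log2 fold change of -2.80 ± 0.17, and its change in CIS-null cells was -2.997 ± 0.17. Rsad2 fell from 4.21 and 3.59 CPM to 0.800 and 0.843 CPM in wild-type cells, or by 2.24 ± 0.31. In CIS-null cells it fell by 0.91 ± 0.31 (edgeR adjusted p = 0.0277), a call lost without CIS-null ex vivo replicate 1 or CIS-null in vitro replicate 1 (adjusted p up to 0.147). Trim30a fell by 0.55 ± 0.08 and 0.66 ± 0.08. Bst2 rose, from 27.0 and 26.7 CPM to 33.7 and 47.6 CPM in wild-type cells (0.60 ± 0.17) and from 25.7 and 20.97 CPM to 52.9 and 56.8 CPM in CIS-null cells (1.24 ± 0.17). The wild-type rise of Bst2 was lost without either wild-type library ex vivo, without wild-type in vitro replicate 2, or with the length trend removed (adjusted p up to 0.102). Eif2ak2 (the kinase PKR), Zbp1, a sensor of Z-form nucleic acid, and Rtp4 passed in neither genotype. Samd9l, a translation inhibitor, fell by 0.66 ± 0.17 in CIS-null cells, a call lost without CIS-null in vitro replicate 2 and with the length trend removed (adjusted p up to 0.413).

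The transcription factors of the set both fell. Irf7, the amplifier of interferon alpha production, went from 67.4 and 61.9 CPM to 33.6 and 32.4 CPM in wild-type cells (log2 fold change -0.97 ± 0.10) and from 59.8 and 56.3 CPM to 26.9 and 24.2 CPM in CIS-null cells (-1.19 ± 0.10). Irf9, the DNA-binding part of the ISRE complex, fell by 0.86 ± 0.09 and 0.74 ± 0.09. Libraries of the 2 states did not overlap for either gene. The RIG-I-like receptors, cytoplasmic sensors of viral RNA, did not move together. Ddx58 (RIG-I) rose in wild-type cells by 0.57 ± 0.13, Dhx58 (LGP2) fell by 0.32 ± 0.12, and Ifih1 (MDA5) passed in neither genotype. The Dhx58 fall in wild-type cells was lost without any 1 of the 4 wild-type libraries (adjusted p up to 0.218), and in CIS-null cells, where it was 0.63 ± 0.12, it held in 18 of 18 alternatives.

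The ADP-ribosyltransferase Parp12 rose the most in wild-type cells. It stood at 4.46 and 4.30 CPM ex vivo and at 29.7 and 33.1 CPM in vitro in wild-type cells, a 7.17-fold rise (log2 fold change 2.84 ± 0.21, adjusted p = 1.09e-05 by edgeR). In CIS-null cells it rose 7.89-fold, from 5.07 and 2.91 CPM to 31.2 CPM in both libraries. Parp9, which partners the ubiquitin ligase Dtx3l, rose by 0.60 ± 0.08 and 0.37 ± 0.08. Parp14 and Dtx3l fell in CIS-null cells, by 1.18 ± 0.19 and 0.49 ± 0.13. The fall of Dtx3l did not pass without CIS-null replicate 2 of either state, and was 0.04 in the other direction with the length trend removed. Ifi27l2a rose from 3.07 and 2.96 CPM to 19.5 and 19.6 CPM in wild-type cells (2.70 ± 0.43) and from 3.64 and 0.748 CPM to 32.8 and 41.0 CPM in CIS-null cells (4.11 ± 0.46). Its CIS-null rise ran from 3.34 to 5.62 as alternatives were tried, the replicates ex vivo being unequal. Ifi44, a protein of unsettled function, was low in vitro, at 0.105 to 0.441 CPM in the 4 libraries beside 1.81 to 3.75 CPM ex vivo. It fell by 4.14 ± 0.50 and 2.63 ± 0.49.

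The guanylate-binding proteins, large GTPases that attack intracellular pathogens, did not share a pattern. Gbp2 rose in wild-type cells from 65.4 and 70.9 CPM to 112 and 118 CPM (0.76 ± 0.11, adjusted p = 0.000451 by edgeR), and in CIS-null cells its level was 75.8 and 79.8 CPM ex vivo and 85.5 and 70.4 CPM in vitro. Gbp3, which lies 47.5 kb from it on chromosome 3, ranged from 45.2 to 58.8 CPM over the 8 libraries. Xaf1, a proapoptotic binder of XIAP, fell by 0.32 ± 0.10 and 0.37 ± 0.11. The wild-type call of Xaf1 was lost without any 1 of the 4 wild-type libraries (adjusted p up to 0.144). Ifi35, a cytoplasmic regulator of interferon responses, rose in CIS-null cells by 0.46 ± 0.09, a call not made with the length trend removed. Mx1 fell in wild-type cells by 1.40 ± 0.47, a call lost on leaving out either wild-type library ex vivo, wild-type in vitro replicate 2, or either CIS-null in vitro library (adjusted p up to 0.103).

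**Figure D2:**
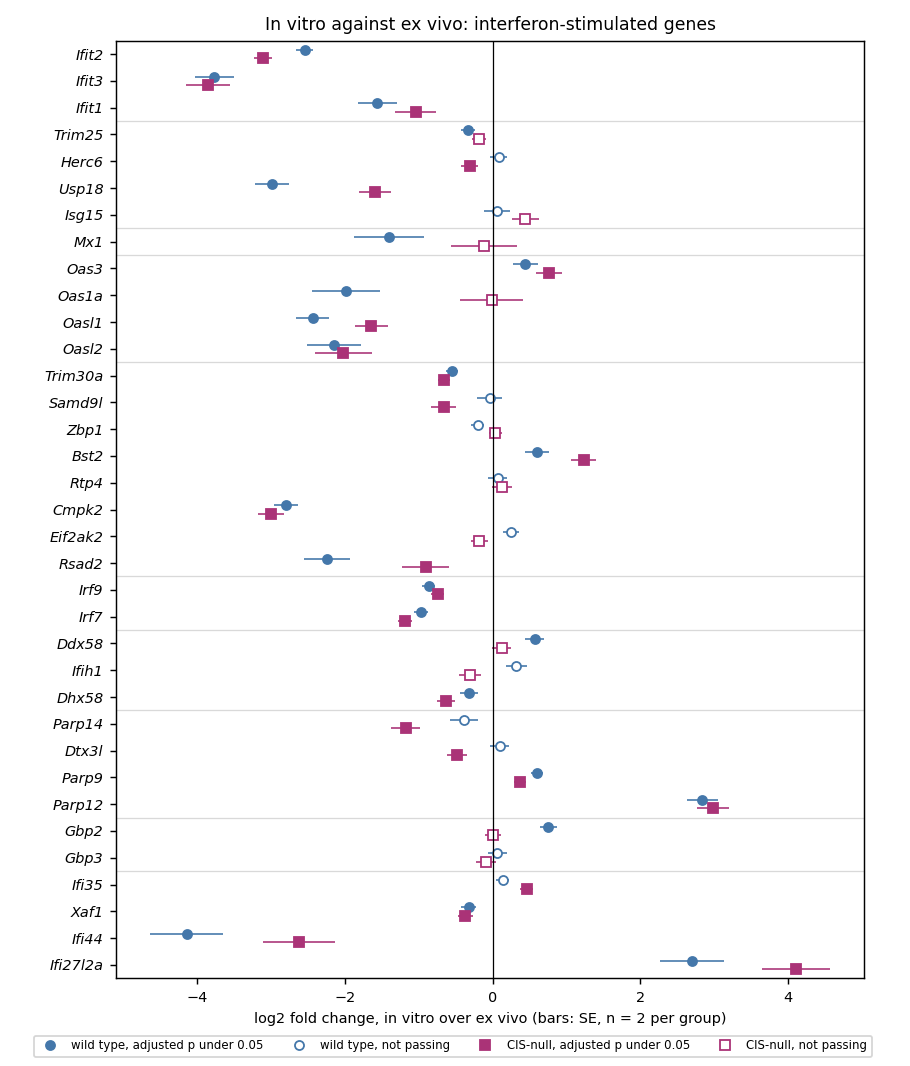
The log2 fold change of each tested member, in vitro over ex vivo, with its standard error (n = 2 libraries per group), is drawn for wild-type cells (circles) and CIS-null cells (squares), filled where the adjusted p was under 0.05. The falls of Ifit2, Ifit3, Usp18, Cmpk2, Oasl1 and Ifi44 and the rises of Parp12 and Ifi27l2a stand farthest from 0 in wild-type cells.

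Markers of other cell types also moved with culture. Csf1r, Adgre1 and Lyz2, which define monocytes and macrophages, were at 31.2 to 65.3, 10.9 to 31.6 and 8.24 to 31.9 CPM in the ex vivo libraries and at or below 0.0401 CPM in vitro. The summed level of the 10 monocyte and macrophage markers was 1570 to 2020 CPM ex vivo and 1240 to 1780 CPM in vitro, most of it Ccr2, which was higher in vitro (1121 to 1727 CPM, beside 792 to 1070 CPM ex vivo), and Ly6c2, which was lower there (26.1 to 124 CPM, beside 444 to 914 CPM). Cd68 was also higher in vitro, at 17.8 to 27.1 CPM beside 11.9 to 14.5 CPM. The 8 B cell markers summed to 234 to 759 CPM ex vivo and 88.2 to 155 CPM in vitro, and the 8 neutrophil markers to 2.03 to 9.43 CPM ex vivo and at most 0.0400 in vitro. For 6 conventional dendritic cell markers the sum was 924 to 1110 CPM ex vivo and 367 to 624 CPM in vitro, mostly Itgax. Xcr1 of that list rose, from at most 1.02 CPM to at least 10.05 CPM. For 8 platelet and erythroid markers the sum was 12.9 to 27.0 CPM ex vivo and at most 0.655 CPM in vitro. The 10 T cell markers went the other way, from 188 to 274 CPM ex vivo to 452 and 526 CPM in wild-type and 1350 and 1360 CPM in CIS-null cells in vitro. The sum in vitro was mostly Cd3g, Cd3d, Trbc1 and Trbc2. Cd4 was lower in vitro, at most 0.104 CPM beside 1.30 to 3.87 CPM ex vivo, as were Cd8b1 and Cd5 in wild-type cells. The 6 basophil and mast cell markers rose in sum from 5.96 and 6.06 CPM to 28.2 and 36.8 CPM in wild-type cells and from 12.3 and 27.4 CPM to 51.3 and 73.6 CPM in CIS-null cells. That rise was in Mcpt8 and Cpa3, whereas Fcer1a, Ms4a2 and Prss34 were at 0 CPM in every in vitro library. Without Bst2, 7 plasmacytoid dendritic cell markers summed to 48.6 to 60.1 CPM ex vivo. In vitro the sum was 51.7 and 55.0 CPM in wild-type and 29.4 and 28.3 CPM in CIS-null cells. Most of it was Tcf4, at 27.2 to 53.5 CPM over the libraries. Cox6a2 and Ly6d were lower in vitro, at most 1.12 and 0.0703 CPM beside at least 4.38 and 0.866 CPM ex vivo. Siglech, which defines plasmacytoid dendritic cells, was at 0 in 7 libraries and at 0.0789 CPM in the other. Bst2 is itself a marker of those cells. The part of these cells in the culture results was not tested.

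Ex vivo, no member passed the test between CIS-null and wild-type cells, where edgeR called 8 of all 13184 genes (0.0607%). The lowest adjusted p of a member was 0.654, in edgeR's quasi-likelihood test. At an unadjusted p under 0.05 there were 8 members, all lower in CIS-null cells, beside 6.4% of all genes (3.32% lower), and DESeq2 gave 0 adjusted calls and 7 unadjusted. The log2 fold change was below 0 for 30 of 35 members, beside 44.9% of all genes, and its median was -0.16 beside 0.02. Libraries did not overlap, with CIS-null lower, for 17 members (18.4% of all genes), and with CIS-null higher for 2, Ifi35 and Gbp2 (22% of all genes).

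The 8 members were Oasl1, Eif2ak2, Rsad2, Oas3, Ifit2, Ifit3, Ifit1 and Ifi44. Rsad2 had the largest difference, with 2.26 and 1.53 CPM in CIS-null cells beside 4.21 and 3.59 CPM in wild-type cells (log2 fold change -1.05 ± 0.29). Oasl1 stood at 3.96 and 3.78 CPM beside 6.52 and 6.75 CPM (-0.78 ± 0.20). Eif2ak2, which halts translation when it binds double-stranded RNA, stood at 15.3 and 15.0 CPM beside 19.5 and 20.7 CPM (-0.41 ± 0.11). In each of the 3 genes both CIS-null libraries lay below both wild-type libraries, with an edgeR adjusted p of 0.654. Ifit2 was 46.3 and 48.1 CPM beside 56.6 and 62.3 CPM (-0.33 ± 0.11), and Ifit1 and Ifit3 differed by -0.73 ± 0.26 and -0.66 ± 0.22. Abundant members differed less: Trim30a by -0.05 ± 0.08, Zbp1 by -0.01 ± 0.08 and Parp9 by -0.03 ± 0.08. The monocyte and macrophage markers summed to 2020 and 1810 CPM in CIS-null and 1620 and 1570 CPM in wild-type cells ex vivo, without overlap, with Ly6c2 at 814 and 914 CPM beside 444 and 507 CPM. B cell markers were uneven between the CIS-null libraries (759 and 234 CPM, beside 437 and 370 CPM in wild-type cells), as were basophil and mast cell markers (27.4 and 12.3 CPM, beside 6.06 and 5.96 CPM), and the part of these cells was not tested.

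In vitro, 14 of 35 members passed between CIS-null and wild-type cells, 11 lower and 3 higher (40.0%), where edgeR called 25.6% of all genes, 14.6% lower and 11% higher. The median log2 fold change was -0.15 beside 0.00 over all tested genes. Libraries did not overlap for 17 members with CIS-null lower (35.1% of all genes) and for 9 with CIS-null higher (33.7%). The number that passed depended on single libraries: it was 5 on leaving out either wild-type in vitro library and 2 without CIS-null in vitro replicate 2. The share called over all genes fell with it, from 25.6% to 6.41% and 8.23% on leaving out wild-type in vitro replicate 1 or 2, and to 3.7% on leaving out CIS-null in vitro replicate 2. The remaining 2 were Eif2ak2 and Ifit2, which were called in all 18 alternatives.

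Eif2ak2 stood at 24.6 and 23.2 CPM in wild-type cells against 14.2 and 12.5 CPM in CIS-null cells in vitro, a 1.79-fold lower level (log2 fold change -0.84 ± 0.11, edgeR adjusted p = 0.00430). Ifit2 stood at 9.98 and 10.4 CPM in wild-type cells against 5.97 and 4.93 CPM in CIS-null cells, a 1.87-fold lower level (-0.90 ± 0.13, adjusted p = 0.00473). The CIS-null libraries lay well below the wild-type libraries for both genes. Ifit1 and Ifit3, next to Ifit2 on the chromosome, did not pass, with differences of -0.21 ± 0.29 and -0.74 ± 0.36.

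All 3 RIG-I-like receptors were lower in CIS-null cells. Ddx58 went from 229 and 236 CPM to 172 and 132 CPM (-0.61 ± 0.13, edgeR adjusted p = 0.0124), Ifih1 from 24.4 and 25.3 CPM to 18.7 and 13.7 CPM (-0.62 ± 0.15, adjusted p = 0.0190), and Dhx58 from 13.9 and 13.3 CPM to 10.3 and 9.21 CPM (-0.47 ± 0.12, adjusted p = 0.0258). Parp14, Dtx3l and Parp9 were lower too. Parp14, a macro domain ADP-ribosyltransferase, stood at 131 and 120 CPM in wild-type cells against 77.4 and 52.2 CPM in CIS-null cells (-0.96 ± 0.19, adjusted p = 0.0119). Dtx3l stood at 133 and 134 CPM beside 91.2 and 76.9 CPM (-0.67 ± 0.13). Parp9 stood at 108 and 110 CPM beside 92.7 and 89.9 CPM, with an adjusted p of 0.0490 that held in 6 of 18 alternatives. Dtx3l and Parp9 overlap by 557 bases on chromosome 16, and Parp14 lies 55.0 kb away. Counts in the overlap cannot be assigned without knowing how strand was handled. Parp12, on another chromosome, was level between the genotypes (-0.01 ± 0.18).

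Samd9l stood at 92.7 and 111 CPM in wild-type cells against 69.3 and 54.6 CPM in CIS-null cells (log2 fold change -0.72 ± 0.17). Gbp2 stood at 112 and 118 CPM beside 85.5 and 70.4 CPM (-0.56 ± 0.11), and Irf7 at 33.6 and 32.4 CPM beside 26.9 and 24.2 CPM (-0.37 ± 0.10). In each gene every CIS-null library was below every wild-type library. Irf9 barely differed (-0.05 ± 0.09).

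The 3 members that were higher in CIS-null cells were Ifi35, Usp18 and Oas1a. Ifi35 stood at 64.7 and 61.7 CPM in wild-type cells against 80.2 and 88.9 CPM in CIS-null cells (0.42 ± 0.09, edgeR adjusted p = 0.0130). Usp18 stood at 1.56 and 1.02 CPM beside 2.89 and 2.40 CPM (1.03 ± 0.25, adjusted p = 0.0196). Oas1a stood at 6.54 and 1.69 CPM beside 11.8 and 14.9 CPM (1.70 ± 0.46, adjusted p = 0.0301). Libraries of the genotypes did not overlap for any of the 3. The size of the Oas1a difference rested on unequal wild-type libraries: it was 1.03 without wild-type in vitro replicate 2 and 3.02 without replicate 1. Mx1 had the same wild-type pattern, 1.84 and 0.527 CPM beside 2.70 and 2.44 CPM, and did not pass (adjusted p = 0.116). These were the only members over 2-fold apart between the wild-type in vitro replicates, as were 3.12% of all tested genes. Bst2 and Ifi27l2a were also higher without overlap and did not pass (adjusted p = 0.0836 and 0.103).

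Calls were lost by library as follows. Ddx58, Dtx3l, Gbp2, Samd9l, Ifih1 and Ifi35 lost theirs without either wild-type in vitro library or without CIS-null in vitro replicate 2, and Ifih1 and Ifi35 also with the length trend removed. Dhx58 and Irf7 lost theirs without those libraries or either wild-type ex vivo library, and Irf7 also when the in vitro groups were fitted alone. Parp14 lost its call without wild-type in vitro replicate 1 or CIS-null in vitro replicate 2, and Usp18 without wild-type in vitro replicate 2 or either CIS-null in vitro library. Oas1a lost its call without either wild-type ex vivo or either CIS-null in vitro library. No called member changed sign in any of the 18 alternatives.

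**Figure D3:**
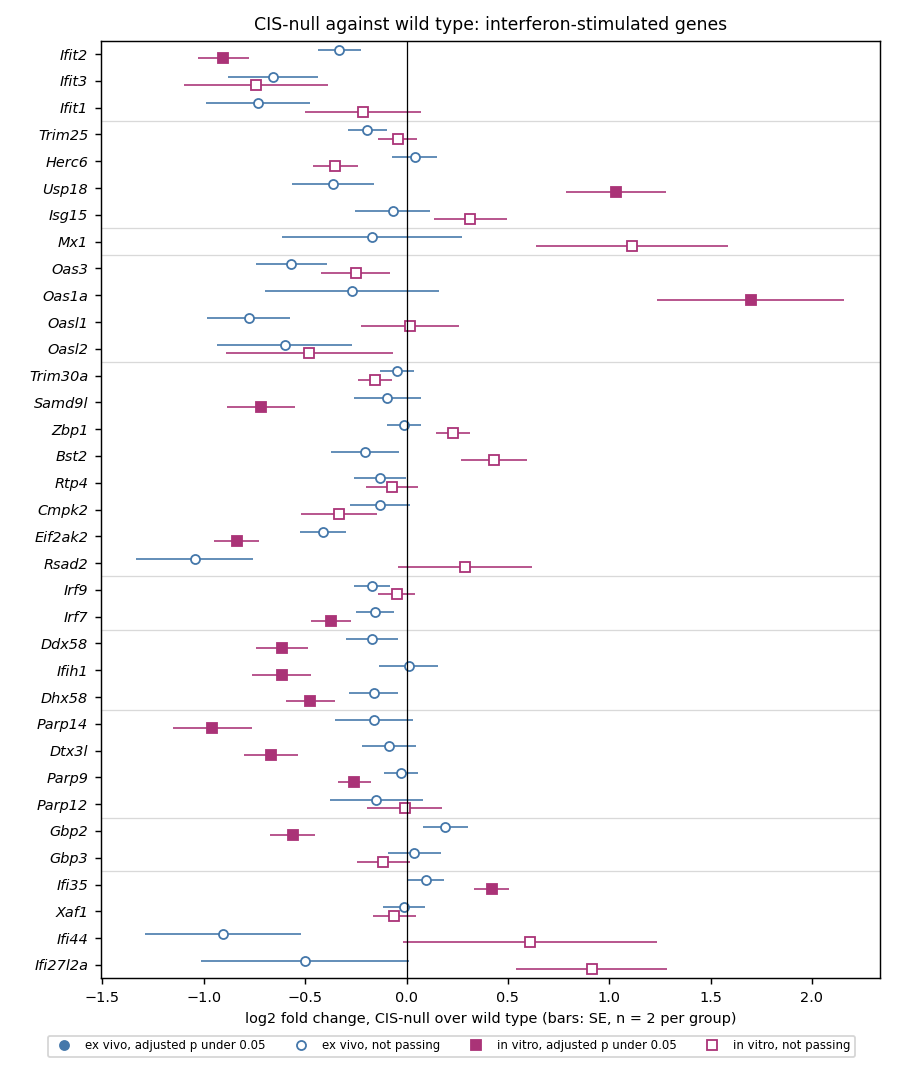
The log2 fold change of each tested member, CIS-null over wild type, with its standard error (n = 2 libraries per group), is drawn ex vivo (circles) and in vitro (squares), filled where the adjusted p was under 0.05. No circle is filled, and 11 filled squares lie left of 0 and 3 right of it.

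Gene length moved with these differences. The 11 lower members had a median length of 4326 bases, the 3 higher ones 1771 bases and the 21 others 2688 bases. Over all tested genes the medians were 4710, 1686 and 2537 bases. With each library's trend with length removed, 9 members were lower and 2 higher, and the median of the members was -0.05. Ribosomal protein genes took 3.18 and 3.89% of counts in the CIS-null in vitro libraries and 3.06 and 2.86% in the wild-type ones. The 10 T cell markers summed to 1350 and 1360 CPM in CIS-null and 526 and 452 CPM in wild-type cells in vitro, with Cd3e at 86.7 and 68.8 CPM beside 9.87 and 3.51. Most of that sum was Cd3g, Cd3d, Trbc1 and Trbc2. Cd4 alone was lower, at 0 and 0.0401 CPM beside 0.104 and 0.0703 CPM, and Cd8b1 and Cd5 were at most 0.655 and 1.04 CPM. Basophil and mast cell markers summed to 51.3 and 73.6 CPM beside 28.2 and 36.8 CPM, mostly Mcpt8 and Cpa3, with Fcer1a, Ms4a2 and Prss34 at 0 CPM in every in vitro library. Other sums were lower in CIS-null cells in vitro without overlap. For 7 plasmacytoid dendritic cell markers they were 29.4 and 28.3 CPM beside 51.7 and 55.0 CPM, mostly Tcf4. For monocyte and macrophage markers they were 1240 and 1530 CPM beside 1780 and 1700 CPM, mostly Ccr2, whereas Ly6c2, Cd14 and Cd68 were higher. For B cell markers they were 92.5 and 88.2 CPM beside 155 and 96.5 CPM, mostly Ighm. The part of the ribosomal protein genes and of these cells in the differences was not tested.

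The difference between the genotype effects in vitro and ex vivo passed for no member, where edgeR called 18 of all genes (0.137%). At an unadjusted p under 0.05 there were 15 members, beside 19.6% of all genes, and the lowest edgeR adjusted p was 0.0929, for Gbp2. DESeq2 called 2, Gbp2 and Usp18, where it called 4.49% of all genes. So the in vitro differences were not shown to be absent ex vivo, nor the reverse. Without CIS-null in vitro replicate 1 the test called Ddx58, Gbp2 and Ifih1, without CIS-null ex vivo replicate 1 Dtx3l and Ifi27l2a, and without wild-type in vitro replicate 1 Oas1a. In each of these fits the share of all genes called was also higher than with every library. The genotype and culture comparisons share libraries, since each group enters 1 genotype and 1 culture comparison. A low wild-type in vitro value of Oas1a, for instance, enters both its genotype difference in vitro and its culture difference in wild-type cells.

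**Figure D4:**
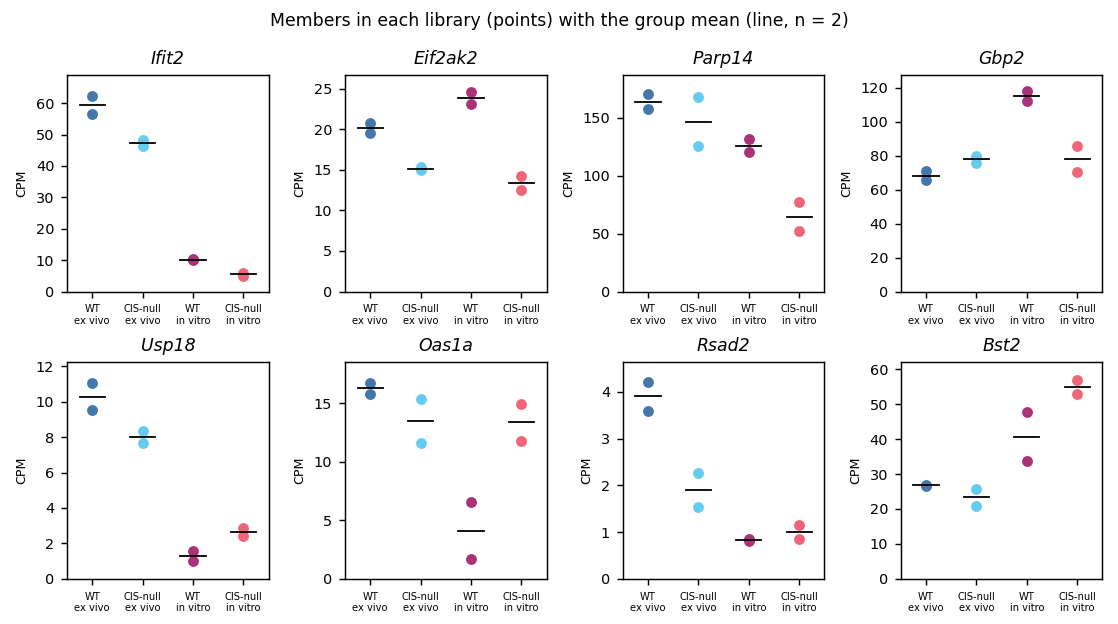
For 8 members the CPM of every library is drawn as a point by group, with a line at the group mean (n = 2). Ifit2, Eif2ak2, Parp14 and Gbp2 are lower in CIS-null than in wild-type cells in vitro, Usp18 and Oas1a higher, and Rsad2 and Bst2 have no call between genotypes.

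The genes that make, receive and pass on interferon were looked at next to their targets. None of the 7 interferon genes Ifnb1, Ifna1, Ifna2, Ifna4, Ifna5, Ifnl2 and Ifnl3 had a count in any library. A count of 0 allows up to 0.104 to 0.138 CPM, counting error only, from 3 counts of the scaled total. Ifng, the type II interferon that NK cells secrete, stood at 66.2 and 81.7 CPM in wild-type cells against 147 and 109 CPM in CIS-null cells in vitro (log2 fold change 0.79 ± 0.18, edgeR adjusted p = 0.0154). Ex vivo its levels overlapped, at 58.8 and 53.1 CPM beside 48.5 and 61.5 CPM. Of 21 ligands, sensors and inducing factors, 14 could be tested, and besides Ifng 4 passed in vitro, all lower in CIS-null cells: the kinase Ikbke (-0.56 ± 0.14), the adaptor Traf3 (-0.67 ± 0.17), the DNA sensor cGAS, listed as Mb21d1 (-0.54 ± 0.14), and Irf5 (-0.59 ± 0.18). The 5 calls were 35.7% of the 14, beside 25.6% of all genes. Without either wild-type library ex vivo, wild-type in vitro replicate 2 or CIS-null in vitro replicate 2, Ifng alone of the 14 was called. Irf5 kept its call without wild-type in vitro replicate 1, unlike the other named genes. With the length trend removed Ikbke, Irf5 and Traf6 passed, and in limma on log2 RPKM Ifng, Ikbke and Traf3 did. Ifng was thus not called with the length trend removed, nor without replicate 1 of either in vitro group. Ex vivo edgeR called 0 of the 14, with 1 at an unadjusted p under 0.05, and DESeq2 called 0. Among 4 tested genes of the interferon gamma and lambda receptors, the kinase Jak2 was lower in vitro (-0.53 ± 0.14), a call lost without either wild-type library of either state or CIS-null in vitro replicate 2.

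Of 14 genes of the type I receptor and its signalling, all tested, 7 were lower and 1 higher in CIS-null cells in vitro (57.1%), beside 25.6% of all genes (14.6% lower and 11% higher). Ex vivo edgeR called 0, with 0 at an unadjusted p under 0.05, and DESeq2 called 0. The in vitro count rested on single libraries: without wild-type in vitro replicate 1 or CIS-null in vitro replicate 2 Stat2 alone was called, and without wild-type in vitro replicate 2 Stat2 and Ifnar1 were. Stat2 stood at 36.9 and 36.2 CPM in wild-type cells against 18.4 and 16.7 CPM in CIS-null cells in vitro (log2 fold change -1.06 ± 0.10, edgeR adjusted p = 0.00233). Both receptor chains were lower, Ifnar1 by 0.52 ± 0.10 and Ifnar2 by 0.43 ± 0.09, as were both kinases, Jak1 by 0.58 ± 0.13 and Tyk2 by 0.57 ± 0.13. Irf1, a transcription factor induced by interferon gamma, was lower by 0.42 ± 0.09. Irf2, a repressor of interferon targets, was the other lower gene, and Irf8 was the single gene of the list that was higher (0.63 ± 0.20). With the length trend removed Ifnar1 and Jak1 were not called, and Ptpn2 was. Irf8 lost its call with library totals, with the replicate block and in limma on log2 RPKM. It also lost it without either wild-type ex vivo library or any 1 in vitro library.

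In culture, 10 of the 14 fell and 2 rose in wild-type cells, and 11 fell and 2 rose in CIS-null cells. These were 85.7% and 92.9% of the list, beside 63.7% and 72.4% of all genes (31.6% and 37.5% lower). Jak1 went from 2471 and 2389 CPM to 715 and 673 CPM in wild-type cells (log2 fold change -1.81 ± 0.13). Socs1, an inhibitor of the receptor's kinases, rose from 20.7 and 22.2 CPM to 63.6 and 64.2 CPM (1.57 ± 0.14). Ifnar1 did not pass in wild-type cells (-0.06 ± 0.10).

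**Figure D5:**
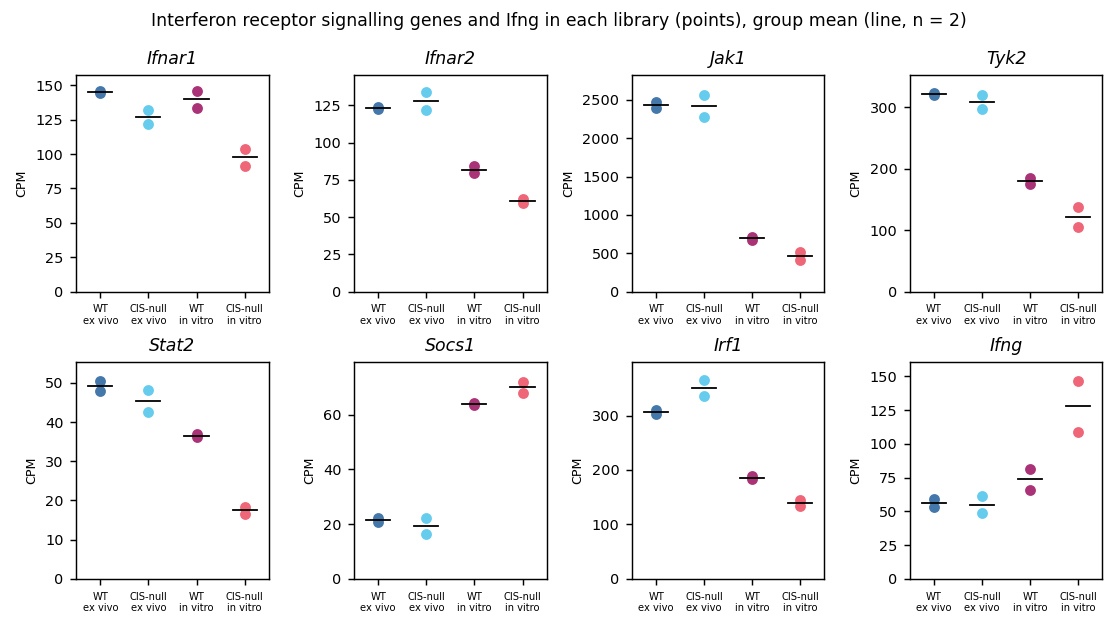
For 7 genes of the type I interferon receptor pathway and Ifng, the CPM of every library is drawn as a point by group, with a line at the group mean (n = 2). In vitro, Stat2 is at 18.4 and 16.7 CPM in CIS-null cells beside 36.9 and 36.2 CPM in wild-type cells, Socs1 is higher in vitro than ex vivo in both genotypes, and Ifng is highest in CIS-null cells.

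A wider list held 67 other interferon-stimulated genes, 65 of them tested. Between genotypes in vitro 19 were lower and 13 higher (49.2%), beside 25.6% of all genes. The 32 calls became 9 on leaving out wild-type in vitro replicate 1, 15 on leaving out its replicate 2, and 4 on leaving out CIS-null in vitro replicate 2. Ex vivo edgeR called 0 of the 65, beside 0.0607% of all genes, with 8 at an unadjusted p under 0.05. DESeq2 called 1, Ifitm1, beside 0.341% of all genes. Those with the lowest p in vitro were Ifitm2, Pml, Iigp1 and Slfn8. Ifitm2, which blocks viral entry at membranes, stood at 160 and 176 CPM in wild-type cells against 335 and 478 CPM in CIS-null cells (log2 fold change 1.28 ± 0.16). The nuclear body protein Pml was lower (-0.67 ± 0.09), the GTPase Iigp1 was higher (1.77 ± 0.26) and Slfn8 was lower (-0.81 ± 0.12). Of these 4, Iigp1 lost its call without CIS-null in vitro replicate 2. In culture the list went both ways, with 19 higher and 18 lower in wild-type and 23 higher and 25 lower in CIS-null cells. The shares called, 56.9% and 73.8%, stood beside 63.7% and 72.4% of all genes. In wild-type cells Ifitm2 rose in culture from 0.715 and 0.632 CPM to 160 and 176 CPM.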

How the data were processed

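NK cell RNA-seq libraries (8, in 4 groups of 2) were grouped by their labels. Per the submitters' processing notes, the authors used Subread, featureCounts and limma with GRCm38/mm10. Versions and the counting settings are not given in the sources used here, so members with close paralogs (the Ifit, Oas, Gbp and Trim30 families) or overlapping neighbours are uncertain. The deposited matrix holds raw read counts per gene (27179 rows). The authors also deposited log2 RPKM values, which served in 1 alternative only.

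Counts were fitted in R 4.3.3 with edgeR 4.0.16 (trimmed mean of M values, filterByExpr with a minimum count of 10 and minimum total of 15, 1 mean per group, 4 residual degrees of freedom, quasi-likelihood F tests). The Benjamini-Hochberg adjustment covered all 13184 tested genes in each of 5 comparisons, and calls were made at an adjusted p under 0.05. Each standard error was derived from the log2 fold change and its F statistic. CPM used the scaled library totals, and RPKM here is CPM per kilobase of the deposited gene length. The fitting steps were tested on simulated data with few changed genes and no trend with gene length. The calls made here were not themselves tested that way. Alternatives were RLE factors, library totals, no filter or 5 CPM in 2 libraries, DESeq2 1.42.0, limma-voom (limma 3.58.1), the compared groups alone, a replicate block, removal of each library's trend with gene length (spline, 4 degrees of freedom), limma on log2 RPKM, and leaving out each library. In the last, the spread of a lone sample was taken from the other groups. Depth was 21.5 to 28.1 M counts per library.

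The members and lists were chosen with earlier results of these data known. All 37 members were to be accounted for, and of the pathway lists 7 fixed genes and up to 4 passing genes per list and comparison, by lowest p, were named. A gene of these lists is not reported here and was left out of their counts. Chromosome positions and promoters came from RefSeq GRCm38.p6 tables matched by symbol or gene ID.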

Additional observations from a re-analysis of the deposited data

Results flagged for a closer look

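For 5 members the CIS-null libraries lay on opposite sides of the wild-type libraries in the 2 states, without overlap in either. Over all tested genes, CIS-null libraries lay lower without overlap for 18.4% and higher for 22% ex vivo, and for 35.1% and 33.7% in vitro. How many of all genes changed sides was not counted, so the 5 are not shown to be more than the background. The genotype effect in vitro minus that ex vivo, on the log2 scale, was 0.64 for Bst2 (edgeR adjusted p = 0.204), -0.75 for Gbp2 (adjusted p = 0.0929), 1.97 for Oas1a (adjusted p = 0.162), 1.33 for Rsad2 (adjusted p = 0.168) and 1.40 for Usp18 (adjusted p = 0.101). None passed the test of the difference. Gbp2 was higher in CIS-null cells ex vivo (0.19) and lower in vitro (-0.56). Usp18 was lower ex vivo (-0.36) and higher in vitro (1.03), as were Oas1a (-0.27 and 1.70), Rsad2 (-1.05 and 0.29) and Bst2 (-0.20 and 0.43). Sex-linked genes also changed sides between the states, and their part was not tested.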

How the results depend on the processing

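Over 18 alternatives (17 for the difference between states), the number of members called was 0 in all for genotype ex vivo, 18 to 27 beside 24 for culture in wild-type cells and 20 to 27 beside 24 for culture in CIS-null cells. For genotype in vitro it was 11 to 16 beside 14 in the alternatives that kept every library, and 2 to 16 when 1 library was left out. For the difference between states it was 0, except for 2 with DESeq2 and 0 to 3 when 1 library was left out. Scaling by library totals moved the median of all genes in vitro from 0.00 to -0.13 and gave 3 higher and 13 lower members. With the length trend removed, 2 culture differences in CIS-null cells changed sign, Herc6 to 0.23 (edgeR adjusted p = 0.0447) and Dtx3l to 0.0395 (adjusted p = 0.720); the cause was not tested beyond that removal. Whether replicate numbers pair the libraries is not in the labels. Over genes, deviations of same-numbered libraries correlated at 0.146 between the ex vivo genotypes and -0.05 between the in vitro genotypes. The values were -0.01 between the wild-type states and -0.23 between the CIS-null states. With 2 libraries per group, these correlations cannot settle pairing. With the replicate number as a block the members called were 0 ex vivo and 13 in vitro between genotypes, 0 for the difference between states, and 24 for culture in each genotype. With 2 libraries per group, single libraries set most of the in vitro genotype calls, and 2 members, Mx2 and Oas2, had too few counts to be tested.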
